A study of Mus musculus with 13 samples.

Results

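The Notch pathway genes described here are 4 ligands (Dll1, Dll4, Jag1, Jag2), 4 receptors (Notch1, Notch2, Notch3, Notch4) and 2 target genes (Hey1, Hes1). They were chosen by name as 10 of the 18193 genes that the arrays measured by at least 1 probe set with a single gene symbol. A probe set is a group of short oligonucleotides that reads 1 transcript or several related transcripts. The 10 genes had 19 probe sets, and the set with the highest mean value stands for each gene. All 10 lay above the floor, a log2 value of 2.01 under which values were set to that level, on at least 4 arrays and entered the test. Between resistant and sensitive tumors Jag1 and Notch2 had the largest positive differences of the 10, Jag1 with a log2 fold change of 2.47 (SE 0.72) and Notch2 with 1.50 (SE 0.50) on 4 arrays each. Neither passed the test over all genes, and the Jag1 difference lay in sensitive arrays 1, 2 and 3.

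RNA came from CD31-sorted cells of SKOV3ip1 tumors, with SKOV3ip1 a human ovarian cancer line grown in mice, and was hybridized to mouse arrays. The resistant group (n = 4) held tumors that grew again under B20, an antibody against VEGF-A, and the sensitive group (n = 4) held tumors that responded to B20. The control group (n = 5) is named only as control in the labels, and the study's methods describe a control IgG. The study's methods describe luciferase-labeled SKOV3ip1 cells, repeated intraperitoneal injections each week, female mice of the athymic nude strain NCr-nu beside wild-type C57BL/6, and sorting of animals into response groups by bioluminescence. The labels name neither the strain behind each array nor the age of the animals. Nude mice lack most T cells and keep macrophages, B cells and natural killer cells. Response groups were thus set after treatment and not by allocation. The study describes cells collected at maximal response and, later, at tumor progression. Harvest time and length of B20 treatment therefore cannot be told apart from response group. The labels call the arrays biological replicates but name no animals, and p-values reflect only how these samples spread, which may be technical.

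Notch receptors are membrane proteins that bind ligands on a neighboring cell. Binding lets ADAM proteases and then gamma-secretase cut the receptor, and the released intracellular part enters the nucleus, where it joins RBPJ and Mastermind-like proteins to activate genes such as those of the Hes and Hey families. In growing vessels, VEGF-A raises Dll4 in the leading tip cells, which restrains sprouting in their neighbors through Notch1, and Jag1 can oppose that signal. Notch3 is known from the mural cells around vessels, Notch4 from endothelium, and Notch2 from macrophages and other blood cells among many types.

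The labels call the cells endothelial, and Pecam1 and Cdh5, which define endothelium, stood far above the floor on 2 arrays. Pecam1, which encodes the CD31 protein used for sorting, had values of 2.32 to 3.41 on 11 arrays and 6.56 on both control arrays 4 and 5. Cdh5, the adhesion protein of endothelial junctions, reached 7.96 and 8.06 on control arrays 4 and 5, against 2.11 to 4.28 elsewhere. Some other endothelial markers stood higher than Pecam1 and Cdh5 on the remaining arrays. The VEGF receptor Kdr had values of 5.69 to 6.61 in resistant and 3.63 to 6.05 in sensitive arrays. It had 8.65 and 9.08 on control arrays 4 and 5 and 3.97 to 4.89 on the other control arrays. Of 22 endothelial genes, 20 were higher on both of these control arrays than on each of the other 11, as were 2.86% of all genes. The summed linear level of the endothelial list ran from 538 to 666 in resistant, 239 to 665 in sensitive and 346 to 4080 in control arrays, and 0 of its 22 genes lay at the floor on every array. The macrophage list, 13 genes on the array, summed to 9524 to 19165 in resistant, 1063 to 19494 in sensitive and 9488 to 19217 in control arrays. Of its genes, 12 were lower on sensitive arrays 1, 2 and 3 than on each of the other 10 arrays, as were 3.92% of all genes. The mesothelial list (11 genes of the peritoneal lining) summed to 113 to 1517 in resistant, 88.9 to 3519 in sensitive and 113 to 655 in control arrays. Of its genes, 9 were higher on sensitive arrays 1 and 2 than elsewhere, as were 18.7% of all genes. Sensitive array 3 was highest for 8 of 9 B cell and 7 of 9 T cell genes, and for 15.8% of all genes. In such mixed cells, fewer cells of a type and less RNA per cell cannot be told apart. The arrays that stood apart were sensitive 1, 2 and 3 and control 4 and 5, and values without them stand beside the results that rest on them. Replicates correlated at 0.896 to 0.955 in the resistant, 0.663 to 0.919 in the sensitive and 0.905 to 0.984 in the control group.

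The promoters of 3 members are shown because the results turn on these genes. Jag1 was low on sensitive arrays 1, 2 and 3, and Notch4 was high on control arrays 4 and 5. Notch2 was lower on every sensitive array than on every control array. Each window runs from 250 bases before to 50 bases after the RefSeq transcription start in build GRCm38.p6 and reads 5′ to 3′ on the strand of the gene. It lies on chr2:137116471-137116770, minus strand, for Jag1, on chr3:98013288-98013587, plus strand, for Notch2, and on chr17:34564045-34564344, plus strand, for Notch4. Capitals mark the only match in these 3 windows to the 4 motifs searched, the AP-1 motif TGANTCA in Notch4.
Jag1 promoter: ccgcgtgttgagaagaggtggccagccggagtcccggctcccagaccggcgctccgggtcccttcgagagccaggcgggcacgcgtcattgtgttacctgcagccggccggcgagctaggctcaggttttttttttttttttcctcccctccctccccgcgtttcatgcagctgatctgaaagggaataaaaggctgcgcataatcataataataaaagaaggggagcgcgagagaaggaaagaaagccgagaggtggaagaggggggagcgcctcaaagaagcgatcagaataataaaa
Notch2 promoter: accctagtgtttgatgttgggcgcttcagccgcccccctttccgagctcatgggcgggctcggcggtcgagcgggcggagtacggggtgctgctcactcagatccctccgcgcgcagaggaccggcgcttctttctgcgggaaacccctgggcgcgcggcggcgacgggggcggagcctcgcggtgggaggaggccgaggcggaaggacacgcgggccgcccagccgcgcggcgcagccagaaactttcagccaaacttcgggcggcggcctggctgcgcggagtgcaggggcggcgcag
Notch4 promoter: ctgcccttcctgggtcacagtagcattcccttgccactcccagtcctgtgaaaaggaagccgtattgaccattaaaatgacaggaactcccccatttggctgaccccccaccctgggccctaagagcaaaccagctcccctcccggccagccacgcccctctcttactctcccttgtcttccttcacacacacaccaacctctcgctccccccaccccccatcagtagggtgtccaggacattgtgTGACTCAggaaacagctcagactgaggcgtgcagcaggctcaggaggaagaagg
Promoter windows were matched for 8 of the 10 genes, and Dll1 had 2, which gave 9 windows. The target genes Hey1 and Hes1 had no matched window, so the search covered only ligands and receptors. The motifs were searched on both strands and do not overlap one another in these windows. The RBPJ motif GTGGGAA was found in 0 of the 9 windows, against 6.38% of 32851 promoter windows of the same length. The ETS motif CCGGAA was also in 0 of 9, against 14.9% of all windows. The AP-1 motif was in 2 of 9, the Notch4 window (bases 247 to 253, across the transcription start) and the second Dll1 window (bases 142 to 148), against 7.81%. The hypoxia response motif ACGTG was in 1 of 9, the Notch3 window, at bases 65 to 69 and 288 to 292, against 19.6%. The GC content of the member windows ran from 55.7% to 86.0%, against a median of 52.7% over all windows.

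**Figure D1:**
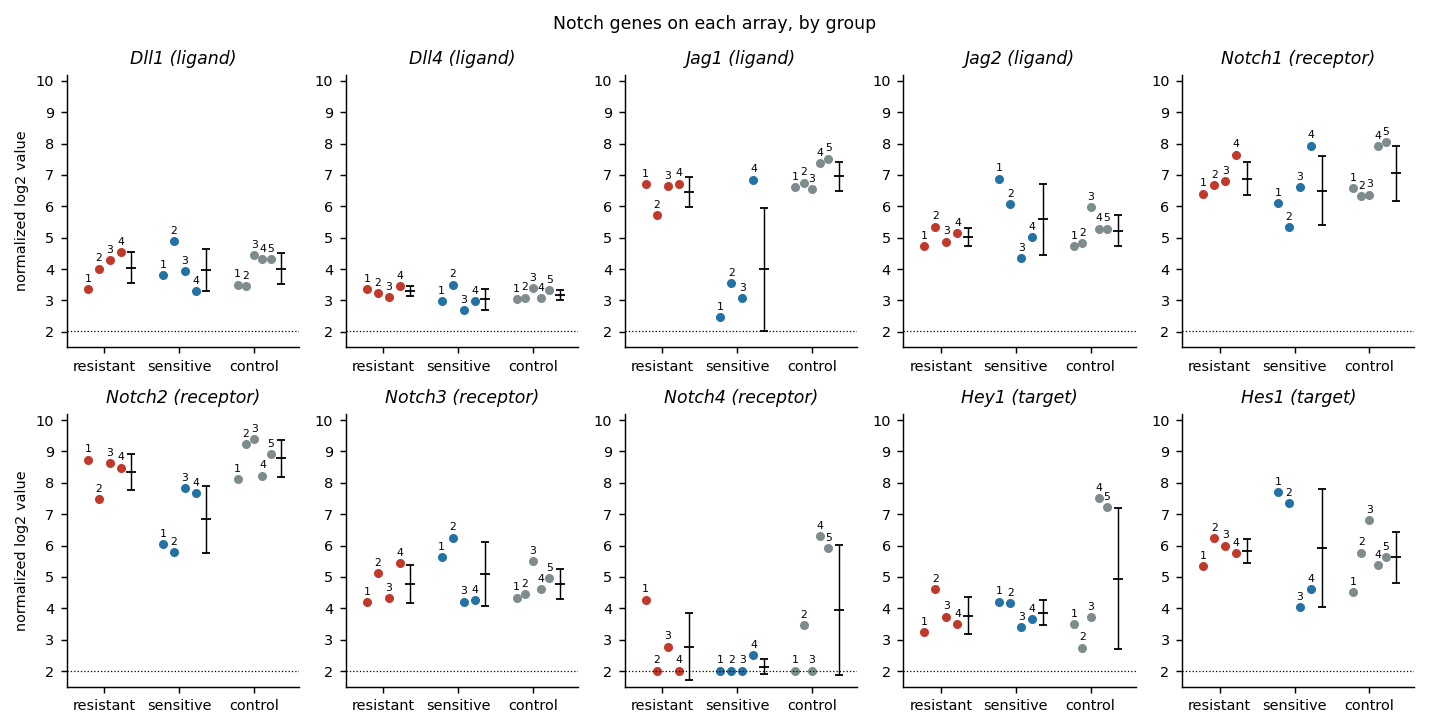
Normalized log2 value of each Notch gene on every array, by group, with replicate numbers, black bars for the mean ± SD and a dotted line at the floor of 2.01. Jag1 runs from 5.73 to 7.52 on 10 arrays and from 2.47 to 3.56 on sensitive arrays 1, 2 and 3, and Notch4 and Hey1 are highest on control arrays 4 and 5.

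Among the ligands, Jag1 varied most between arrays. Jag1, a Serrate-type ligand of many vascular and stromal cells, had log2 values of 6.72, 5.73, 6.65 and 6.72 on the 4 resistant arrays, 2.47, 3.56, 3.08 and 6.85 on the sensitive arrays and 6.60, 6.76, 6.54, 7.39 and 7.52 on the control arrays. Sensitive arrays 1, 2 and 3 were thus lower than every other array, while sensitive array 4 lay among the control values, so that the groups overlapped. By group, the mean was 6.45 ± 0.48 (SD, n = 4) in resistant, 3.99 ± 1.96 (SD, n = 4) in sensitive and 6.96 ± 0.46 (SD, n = 5) in control tumors. By limma, the resistant minus sensitive difference was 2.47 (SE 0.72, 5.52-fold, adjusted p = 0.471) and the sensitive minus control difference was -2.97 (SE 0.68, 7.85-fold lower, adjusted p = 0.189). The resistant minus control difference was -0.51, with a 95% interval of -1.97 to 0.95.

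The Jag1 differences rested on sensitive arrays 1, 2 and 3 and on whether sensitive array 4 was counted. Without arrays 1, 2 and 3, the resistant minus sensitive difference was -0.40 (adjusted p = 0.975) and the sensitive minus control difference -0.11 (adjusted p = 1). Without sensitive arrays 1 and 2 the same differences were 1.49 (adjusted p = 0.412) and -2.0 (adjusted p = 0.275). Without sensitive array 4 they were 3.42 (adjusted p = 0.000403) and -3.93 (adjusted p = 8.17e-05), both past the threshold of 0.05. In that fit 428 of 15370 genes passed in the first comparison and 696 in the second. Without control arrays 4 and 5, on which Jag1 was highest, the sensitive minus control difference was -2.64 (adjusted p = 0.576) and the resistant minus control difference -0.18 (adjusted p = 1). Sensitive array 4 had the largest difference of 3′ over 5′ probe sets of the control transcripts, a measure of RNA integrity, at 5.75 log2 units, against 2.15 to 4.11 on the other 12 arrays. The macrophage list median moved with Jag1, at 4.42, 3.67 and 4.60 on sensitive arrays 1, 2 and 3 and 7.99 to 10.3 on the other 10. Its part in the result was not tested. A second Jag1 probe set was low on the same sensitive arrays, at 2.23, 2.40 and 2.80, but also on resistant array 4, at 3.0, and gave a resistant minus sensitive difference of 1.34 and a sensitive minus control difference of -2.49. The third, between 2.13 and 3.39 on all arrays, gave 0.41 and -0.26.

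Jag2, the other Serrate-type ligand, stood higher on sensitive arrays 1 and 2 than on any other array. On both of these arrays the mesothelial list was also at its highest. The values of Jag2 were 4.73, 5.36, 4.88 and 5.16 in resistant, 6.88, 6.08, 4.35 and 5.02 in sensitive and 4.72, 4.84, 5.98, 5.29 and 5.29 in control tumors. The sensitive group held both the highest and the lowest array. The resistant minus sensitive difference was -0.55 (95% interval -1.58 to 0.48) and the sensitive minus control difference 0.36 (-0.62 to 1.33). Without sensitive arrays 1 and 2 both turned, to 0.35 and -0.54. The sensitive minus control difference also turned, to -0.10, with arrays centred on the median. The second Jag2 probe set gave -0.73 and 0.61.

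Of the members, the Delta-type ligands Dll4 and Dll1 had the smallest ranges in these arrays, and that of Dll1 was 1.60 log2 units. Dll4, the ligand of tip cells, had values of 3.36, 3.24, 3.11 and 3.46 in resistant, 2.97, 3.5, 2.69 and 2.97 in sensitive and 3.04, 3.09, 3.38, 3.08 and 3.32 in control tumors. The whole range was 0.82 log2 units, with the sensitive group again holding the highest and the lowest array. The resistant minus sensitive difference was 0.26 (95% interval -0.18 to 0.70), the sensitive minus control difference -0.15 (-0.57 to 0.27) and the resistant minus control difference 0.11 (-0.31 to 0.53). The second Dll4 probe set gave the opposite sign in the first of these, -0.18, and in the second, 0.30. Dll4 was not among the genes that were highest on the endothelial-rich control arrays 4 and 5. Dll1, a Delta ligand known from lymphocyte development and arteries, lay between 3.36 and 4.53 in resistant, 3.30 and 4.89 in sensitive and 3.45 and 4.44 in control tumors. Its differences were 0.06 (95% interval -0.78 to 0.91), -0.03 (-0.83 to 0.78) and 0.04 (-0.77 to 0.84) in the same order, and the last turned to -0.03 with arrays centred on the median.

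Of the receptors, Notch2 was lower in every sensitive array than in every control array. Its values were 8.74, 7.49, 8.64 and 8.48 in resistant, 6.06, 5.80, 7.83 and 7.67 in sensitive and 8.13, 9.23, 9.40, 8.23 and 8.91 in control tumors. Sensitive and control arrays did not overlap, whereas resistant arrays overlapped with both. The difference was -1.94 between sensitive and control tumors (SE 0.47, 3.84-fold lower, adjusted p = 0.207) and 1.50 between resistant and sensitive tumors (SE 0.50, 2.83-fold, adjusted p = 0.554). The resistant minus control difference was -0.44, with a 95% interval of -1.45 to 0.57.

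Sensitive arrays 1 and 2 carried much of the Notch2 difference. Without them the resistant minus sensitive difference was 0.58 (adjusted p = 0.565) and the sensitive minus control difference -1.03 (adjusted p = 0.306). Without sensitive array 4 the values were 1.78 (adjusted p = 0.0937) and -2.22 (adjusted p = 0.0207). The second passed the threshold, as did 696 of 15370 genes in that comparison. Of all genes, 10.5% were lower on sensitive arrays 1 and 2 than on each of the other 11 arrays, as were 7 of 13 macrophage genes. The second Notch2 probe set was not low on these 2 arrays, at 4.68 and 4.98 within a range of 3.22 to 5.20, and its differences were 0.01 and 0.33.

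Notch1, the receptor that answers Dll4 in sprouting vessels, was highest on control arrays 5 and 4 and on sensitive array 4. It had values of 6.40, 6.68, 6.79 and 7.65 in resistant, 6.10, 5.33, 6.61 and 7.94 in sensitive and 6.57, 6.32, 6.37, 7.93 and 8.04 in control tumors. The 3 groups overlapped. The resistant minus sensitive difference was 0.39 (95% interval -0.81 to 1.59) and the sensitive minus control difference -0.55 (-1.69 to 0.59). Without sensitive arrays 1 and 2 these turned to -0.39 and 0.23, and without control arrays 4 and 5 the sensitive minus control difference turned to 0.07. The second Notch1 probe set gave -0.09 and 0.44. It was not low on sensitive arrays 1 and 2, at 5.38 and 5.41 within a range of 4.28 to 5.53.

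Notch3, the receptor of mural cells, followed Jag2 in being highest on sensitive arrays 1 and 2. It had values of 4.21, 5.14, 4.32 and 5.45 in resistant, 5.64, 6.25, 4.22 and 4.25 in sensitive and 4.35, 4.46, 5.50, 4.61 and 4.97 in control tumors. Its probe set carries the suffix of sets that can read several transcripts. Group means were 4.78 ± 0.61 (SD, n = 4) in resistant, 5.09 ± 1.02 (SD, n = 4) in sensitive and 4.78 ± 0.47 (SD, n = 5) in control tumors. The resistant minus sensitive difference was -0.31 (95% interval -1.35 to 0.73) and turned to 0.54 without sensitive arrays 1 and 2. The second Notch3 probe set lay between the floor and 2.61 and gave -0.06. The sensitive minus control difference was 0.31 (-0.67 to 1.30) and turned to -0.54 without these arrays and to -0.09 with arrays centred on the median. Markers of mural cells had a list median of 4.29 and 4.25 on sensitive arrays 1 and 2. Among the other 11 arrays it ran from 2.59 to 4.34, and only control array 5 lay higher. Of 12 mural genes, 3 were higher on sensitive arrays 1 and 2 than on each other array, as were 18.7% of all genes.

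Notch4, an endothelial receptor, was at the floor on 7 of the 13 arrays. It had values of 4.28 and 2.78 on resistant arrays 1 and 3, 2.51 on sensitive array 4, and 3.47, 6.29 and 5.91 on control arrays 2, 4 and 5, and lay at the floor elsewhere. Control arrays 4 and 5 were thus above all others, and the remaining control arrays overlapped with both treated groups. The sensitive minus control difference was -1.80 (SE 0.82, adjusted p = 0.412) and the resistant minus control difference -1.17 (SE 0.82, adjusted p = 1.00). Without control arrays 4 and 5 they were -0.36 (adjusted p = 0.863) and 0.27 (adjusted p = 1). The endothelial list median was 6.86 and 7.36 on these 2 control arrays, against 3.65 to 4.39 on resistant, 2.78 to 3.52 on sensitive and 3.27 to 3.52 on the other control arrays. The other 2 Notch4 probe sets did not exceed 2.78 on any array and were no higher than 2.21 on control arrays 4 and 5.

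The target genes showed 2 separate patterns across arrays. Hey1, a transcriptional repressor that Notch induces in endothelium, had values of 3.24, 4.61, 3.73 and 3.49 in resistant, 4.21, 4.17, 3.41 and 3.66 in sensitive and 3.49, 2.75, 3.73, 7.52 and 7.24 in control tumors. Control arrays 4 and 5 stood above every other array, and the other arrays of the 3 groups overlapped. The sensitive minus control difference was -1.09 (95% interval -2.94 to 0.77) and the resistant minus control difference -1.18 (-3.03 to 0.67). Without control arrays 4 and 5 both turned, to 0.54 and 0.44. The resistant minus sensitive difference was -0.09 (-2.05 to 1.86), and turned to 0.04 with arrays centred on the median.

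Hes1, a repressor that Notch and other signals induce in many cell types, was highest on sensitive arrays 1 and 2 and lowest on sensitive array 3. Its values were 5.36, 6.24, 6.0 and 5.75 in resistant, 7.71, 7.35, 4.03 and 4.60 in sensitive and 4.52, 5.77, 6.81, 5.38 and 5.63 in control tumors. The sensitive arrays therefore lay at both ends of the range, with the resistant arrays between them. The mean was 5.84 ± 0.38 (SD, n = 4) in resistant and 5.92 ± 1.88 (SD, n = 4) in sensitive tumors, a difference of -0.09 (95% interval -1.66 to 1.49). This turned to 1.52 without sensitive arrays 1 and 2 (adjusted p = 0.246), to 0.40 with arrays centred on the median and to 0.31 on the values as deposited. The sensitive minus control difference of 0.30 turned to -1.31, -0.28 and -0.17 under the same settings. The mesothelial list median was 7.78 and 7.46 on sensitive arrays 1 and 2 and 2.60 and 2.56 on sensitive arrays 3 and 4. Its part in the Hes1 values was not tested.

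**Figure D2:**
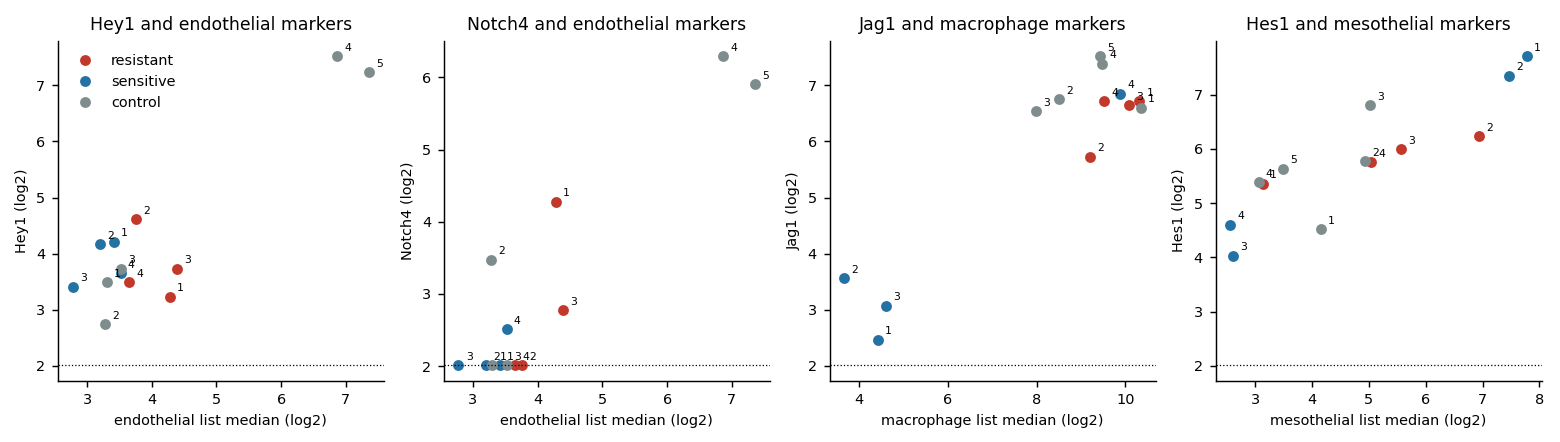
Hey1 and Notch4 against the endothelial list median, Jag1 against the macrophage list median and Hes1 against the mesothelial list median, all as log2 values, 1 point per array with replicate numbers, colored by group, and a dotted line at the floor. Hey1 and Notch4 are highest where the endothelial median is 6.86 or 7.36, the 3 lowest Jag1 values lie at macrophage medians of 3.67 to 4.60, and the 2 highest Hes1 values lie at mesothelial medians of 7.46 and 7.78.

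Taken by arrays, the members fell into several sets. Jag1, Notch4 and Hey1 were higher on control arrays 4 and 5 than on each other array (3 of 10 members, 2.86% of all genes). Jag2, Notch3 and Hes1 were higher on sensitive arrays 1 and 2 than on each other array (3 of 10, 18.7% of all genes), and Notch1 and Notch2 were lower there (2 of 10, 10.5% of all genes). The second probe sets of Notch1 and Notch2 were not low on these arrays. Jag1 was lower on sensitive arrays 1, 2 and 3 than on each other array (1 of 10, 3.92% of all genes). These sets were seen in the values and are a description of these arrays.

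**Figure D3:**
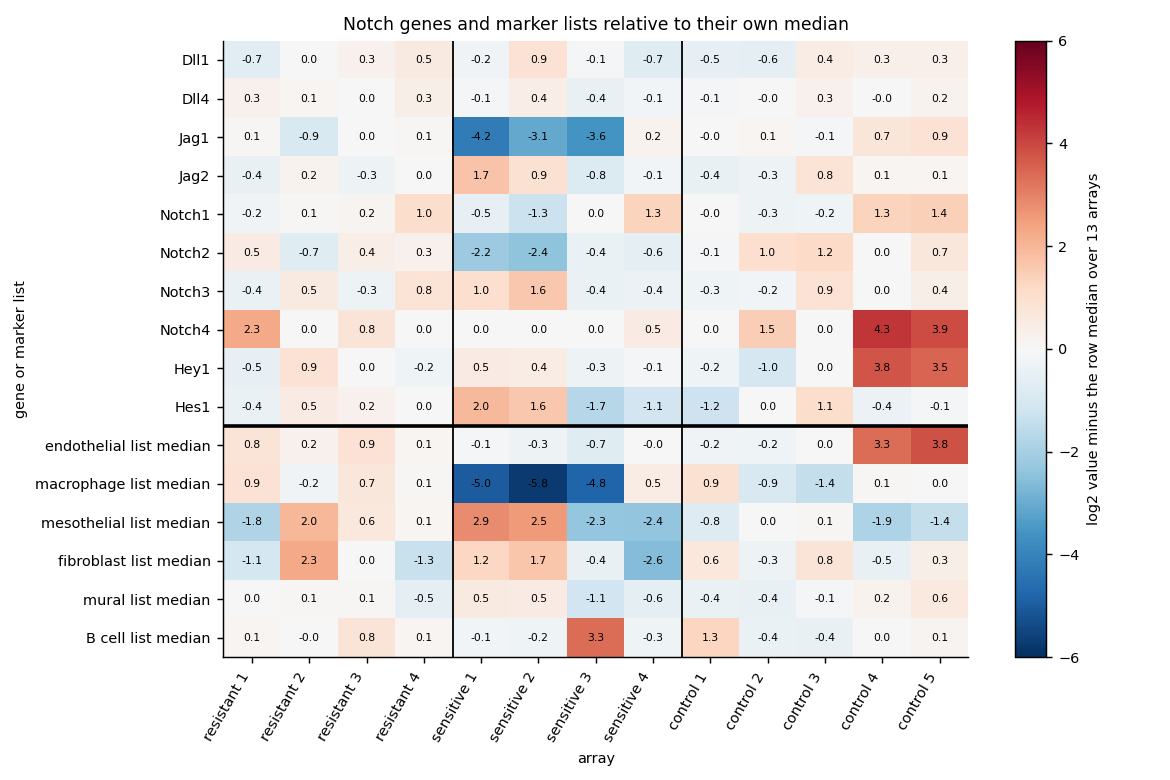
Each Notch gene (rows above the line) and the median of each of 6 marker lists (rows below it) on the 13 arrays, as log2 value minus the median of the row. Hey1 and Notch4 and the endothelial list share their highest values on control arrays 4 and 5, and Jag1 and the macrophage list share their lowest values on sensitive arrays 1, 2 and 3.

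Across the 3 comparisons, 0 of the 10 members passed an adjusted p of 0.05 by limma, and 0 of 15370 genes tested did so, a background of 0% in each. At an unadjusted p under 0.05, 2 members (Jag1, Notch2) were higher and 0 lower in resistant than in sensitive tumors, against a background of 4.54% higher and 2.53% lower (7.07% in all). Between sensitive and control tumors 0 were higher and 3 (Jag1, Notch2, Notch4) lower, against 5.31% and 6.58% (11.9% in all). Between resistant and control tumors 0 were past this threshold, against 2.51% of all genes (0.982% higher and 1.53% lower). Run without its variance model, the methods' t-test gave 1 member (Notch2), 2 members (Jag1, Notch2) and 0 members at an unadjusted p under 0.05, in the same order, against 3.44%, 8.91% and 6.77% of all genes under that test, and 0 after adjustment. Notch2 was the only member whose groups did not overlap in a comparison, sensitive against control, where 1.59% of all genes were lower and 1.43% higher without overlap (3.03% in all). Between resistant and sensitive tumors 0 members were without overlap, against 0.976% of all genes higher and 0.898% lower (1.87% in all), and between resistant and control tumors 0 members, against 1.31% higher and 1.39% lower (2.71% in all). The median difference over the 10 members was 0.16 between resistant and sensitive, -0.35 between sensitive and control and -0.18 between resistant and control tumors, beside -0.07, 0.09 and 0.03 over all genes tested. The sensitive group enters the first 2 of these comparisons and the control group the last 2, so they share arrays.

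**Figure D4:**
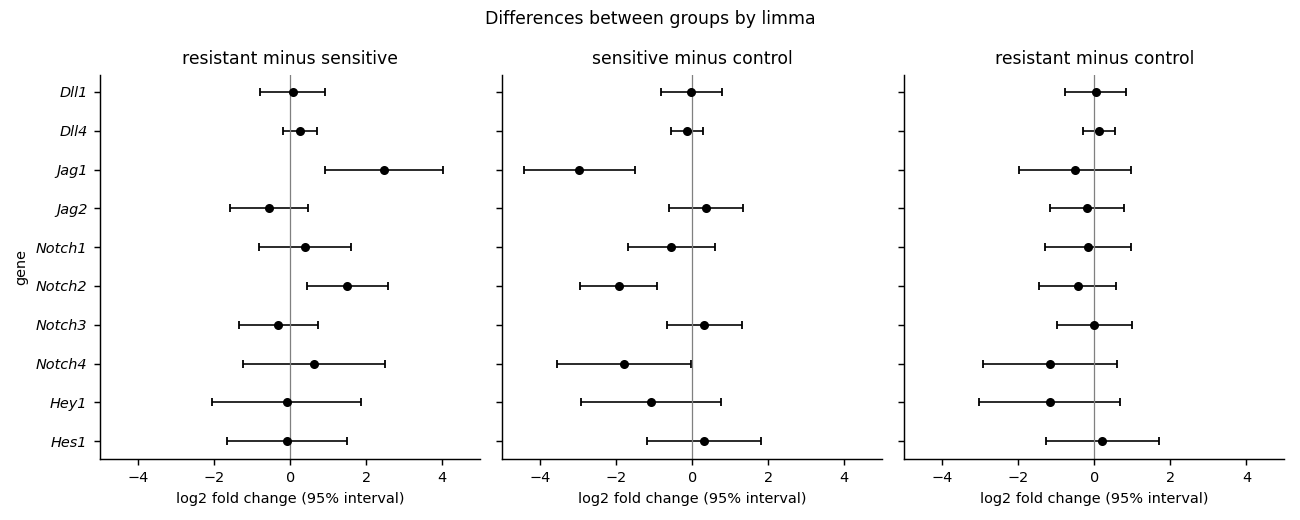
Difference between groups for each Notch gene in the 3 comparisons, as limma log2 fold change with its 95% interval. The intervals leave out 0 for Jag1 and Notch2 between resistant and sensitive tumors and for Jag1, Notch2 and Notch4 between sensitive and control tumors, and 0 of the 10 differences passed the adjusted test in any comparison.

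Other genes of the pathway came from lists of 53 further ligands and modulators, targets, sugar transferases, proteases, nuclear complex members, corepressors and trafficking proteins, with 49 on the arrays and 48 in the test. Of the 48, 0 were called by limma in any comparison. At an unadjusted p under 0.05, 1 was higher and 1 lower in resistant than in sensitive tumors, 2 were higher and 3 lower in sensitive than in control tumors, and 0 were past it between resistant and control tumors. These are 4.17%, 10.4% and 0% of the 48, beside 7.07%, 11.9% and 2.51% of all genes. Their median differences were -0.08, 0.05 and 0.08 in the same order. The genes named next had the 3 smallest p-values in each comparison.

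Aph1b, a subunit of gamma-secretase, was higher in every resistant than in every sensitive array. It had values of 4.79, 4.45, 4.35 and 5.20 in resistant, 2.11, 4.33, 2.92 and 3.70 in sensitive and 3.73, 4.11, 4.25, 4.36 and 3.82 in control tumors. The resistant minus sensitive difference was 1.43 (SE 0.41, adjusted p = 0.461), 1.39 (adjusted p = 0.153) without sensitive arrays 1 and 2, and the gap between the lowest resistant and the highest sensitive array was small. Without overlap, 0.976% of all genes were higher in resistant tumors. Ep300, the acetyltransferase recruited by the nuclear complex, had values of 5.26, 6.35, 5.44 and 6.05 in resistant, 7.95, 7.55, 6.31 and 6.11 in sensitive and 5.04, 5.24, 6.22, 5.80 and 6.28 in control tumors. Its highest values were again on sensitive arrays 1 and 2, and it differed by -1.21 (SE 0.46, adjusted p = 0.611) between resistant and sensitive and by 1.27 (SE 0.44, adjusted p = 0.309) between sensitive and control tumors. Without these 2 arrays its differences were -0.44 (adjusted p = 0.654) and 0.50 (adjusted p = 0.630).

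Numb, an inhibitor that promotes loss of Notch from the membrane, differed by 0.62 (SE 0.32, adjusted p = 0.732) between resistant and sensitive and by -0.84 (SE 0.31, adjusted p = 0.330) between sensitive and control tumors. Without sensitive arrays 1, 2 and 3 these were -0.06 and -0.16. The corepressor Ctbp1 had values of 8.0, 8.08, 8.03 and 8.05 in resistant, 9.28, 8.41, 8.86 and 7.89 in sensitive and 7.78, 7.37, 7.95, 7.66 and 7.86 in control tumors. It differed by 0.89 (SE 0.28, adjusted p = 0.290) between sensitive and control tumors, and by 0.17 without sensitive arrays 1, 2 and 3. Without sensitive array 4 it differed by 1.13 (adjusted p = 0.0250) and passed the threshold, as did 696 of 15370 genes. Every resistant array was above every control array for Ctbp1, with a difference of 0.32 (SE 0.28, adjusted p = 1.00), and 1.31% of all genes were higher without overlap in that comparison. Between resistant and control tumors the smallest p-values belonged to the sugar transferase Mfng at -0.93 (SE 0.50), the gamma-secretase subunit Psenen at -0.59 (SE 0.34) and Aph1b at 0.64 (SE 0.39), each with an adjusted p of 1.00. Of further genes named after their values were seen, the target Hey2 lay at the floor on all 13 arrays and was not tested. Nrarp, a target that feeds back on Notch, was highest on sensitive arrays 1 and 2, at 6.33 and 5.82. It had 3.93 to 5.25 in resistant, 4.10 and 4.13 on the other sensitive and 3.84 to 4.96 in control arrays. Of all genes, 18.7% were higher on sensitive arrays 1 and 2 than on each other array. Hes6, also on the target list, was lowest there, at 3.01 and 3.19, as were 10.5% of all genes. By limma, Hes6 differed by -0.97 (SE 0.38, adjusted p = 0.349) between sensitive and control tumors. Rbpj, the DNA-binding partner of Notch, had its lowest values on sensitive arrays 1, 2 and 3, at 5.16, 6.22 and 6.73, and its highest on sensitive array 4, at 9.09. Of all genes, 3.92% were lower on sensitive arrays 1, 2 and 3 than on each other array.

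**Figure D5:**
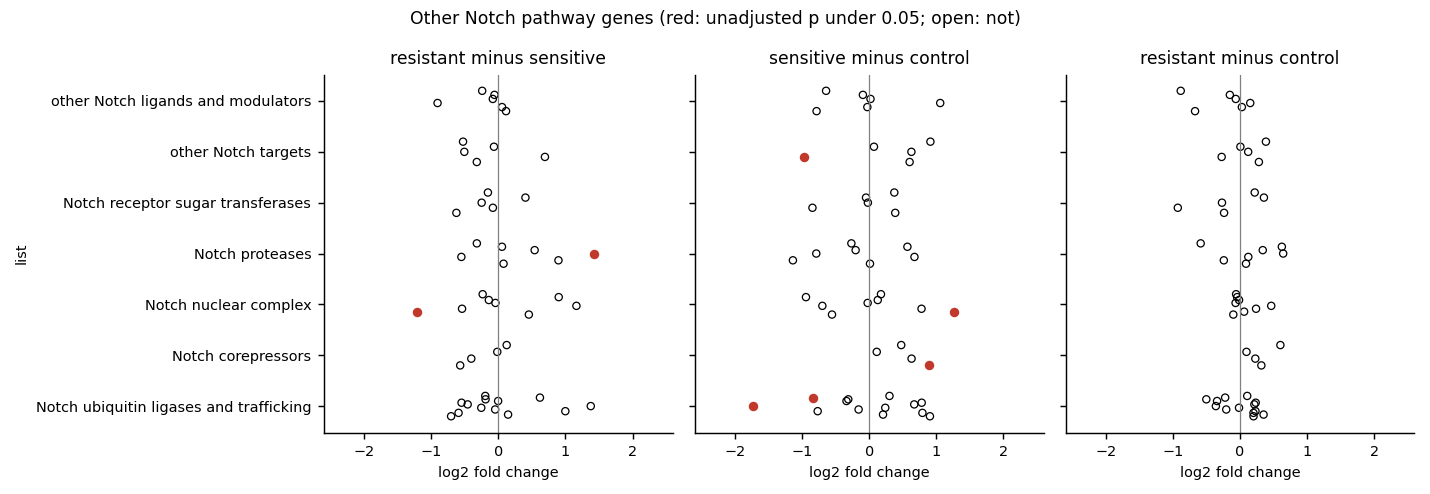
Log2 fold change of each of the 48 other Notch pathway genes tested, by list and comparison, with 1 point per gene, filled red where the unadjusted p was under 0.05. Filled points number 2, 5 and 0 in the 3 panels, and 0 of the genes passed the adjusted test.

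The genes whose values across arrays were most like those of each member are given as a description over 13 arrays that share groups and cell makeup. For Jag1 these were Slc7a11, the cystine transporter (Pearson r = 0.99 over 13 arrays and 0.98 without the 2 arrays farthest from the median), and Ptpre, a tyrosine phosphatase (0.98 and 0.94). For Notch4 they were Tek, the angiopoietin receptor of endothelium (0.95 and 0.71), and Gask1b (0.95 and 0.74), so that the likeness was weaker without control arrays 4 and 5. For Hey1 they were Lhx6 (0.97 and 0.86) and Tmem204 (0.97 and 0.70), with the same arrays left out. Notch2 was nearest to Msn, which encodes moesin (0.94 and 0.78), and Agpat5 (0.93 and 0.78). For Jag1 the arrays left out were sensitive 1 and 3, so its low value on sensitive array 2 stayed in the second r.

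Among the members that were highest on sensitive arrays 1 and 2, Jag2 was nearest to Masp1 (0.96 and 0.90) and Fam163b (0.96 and 0.93), Notch3 to the epithelial splicing regulator Esrp2 (0.97 and 0.94) and the planar polarity gene Vangl1 (0.97 and 0.97), and Hes1 to Ctnnbip1 (0.96 and 0.96) and the calcium-binding protein gene S100a6 (0.96 and 0.93). For Hes1 the arrays left out were sensitive 1 and 3, so its high value on sensitive array 2 stayed in the second r. Notch1 was nearest to Slco4a1 (0.87 and 0.85) and Apbb3 (0.86 and 0.78). Dll1 was nearest to Tmem183a (0.85 and 0.76) and Kcnk12 (0.84 and 0.80), and Dll4 to Olfr1264 (0.87 and 0.86) and Ssu2 (0.86 and 0.79). Kcnk12 and Olfr1264 did not exceed 2.58 and 2.49, close to the floor.

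In order of group means, Jag1 and Notch2 ran sensitive, resistant, control from low to high. For both genes the resistant and control means, as neighbors, did not differ beyond their spread. Notch4 ran in the same order, with the sensitive and resistant means of 2.14 ± 0.25 and 2.77 ± 1.07 (SD, n = 4 each) within the spread and the control mean at 3.94 ± 2.06 (SD, n = 5). Notch1 also ran sensitive, resistant, control, with each neighboring pair within the spread. Hey1 ran resistant, sensitive, control, with means of 3.77 ± 0.60 (SD, n = 4), 3.86 ± 0.39 (SD, n = 4) and 4.95 ± 2.25 (SD, n = 5), each neighboring pair within the spread. For Dll1, Dll4, Jag2, Notch3 and Hes1, no pair of group means differed beyond the spread.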

How the data were processed

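Mouse expression was read on 13 single-color Affymetrix whole-genome arrays of 45101 probe sets. Deposited values from the authors were read as log2 intensities, since the spiked controls BioB and CreX, added in increasing amounts, averaged 6.32 and 11.7. The base of the logarithm is not given in the sources used here, and base 2 is assumed for fold changes. The submitters' processing notes name MAS5, whereas the study's methods describe Illumina bead chips, BRB-ArrayTools, a minimum intensity and a Student t-test with a random variance model, so the normalization by the authors is not settled. Linear trimmed means ran from 19.4 to 33.5. They were lowest on sensitive arrays 1 and 2, at 19.4 on both, with control array 3 next at 23.8. Sensitive arrays 1 and 2 are also those on which Jag2, Notch3 and Hes1 were highest and Notch1 and Notch2 lowest, by the probe set that stands for each gene. Whether the low signal had a part in this was not tested.

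Arrays were quantile normalized and values under the 30th percentile (2.01) were set to it, since 91.1% of values lay under an intensity of 100. This understates changes of dim genes. The platform table paired 34958 probe sets with 1 symbol and 932 with several, and did not list 9211. Without the 64 control sets, the probe set of highest mean was taken for each of 18193 genes, and 15370 above the floor on at least 4 arrays were tested. The level of a member was not set against that of another member. The test was limma 3.58.1 in R 4.3.3 (lmFit, eBayes with an intensity trend, all 3 groups, two-sided, Benjamini-Hochberg over all genes, called at an adjusted p under 0.05), and the scripts were tested on simulated data. The number of arrays limits the precision.

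Named genes are the 10 members, the 3 other pathway genes with the smallest p in each comparison, and the 2 genes most correlated with each member. Hey2, Nrarp, Hes6 and Rbpj were named outside this rule, after their values were seen. Members, lists and tests were chosen with earlier results of these data known. Replicate numbers did not pair the arrays. Promoter windows came from RefSeq, build GRCm38.p6. Alternatives covered scaling, floor, filters, probe set rule, variance model, the methods' t-test, run without its random variance model, the replicate block and left-out arrays. Leaving out sensitive arrays 1 and 2, and leaving arrays out for the named pathway genes, were added after seeing the data.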

Additional observations from a re-analysis of the deposited data

Results flagged for a closer look

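Of 30 sets of 4 or 5 arrays, each a member in a group, 2 held an array far from the others, and chance alone is expected to give about 1 in 20 such sets. Jag1 on resistant array 2 was 5.73, while the next resistant array was at 6.65 and the highest at 6.72, so that the gap took 0.92 of the range of the group. Notch4 on sensitive array 4 was 2.51, while the other 3 sensitive arrays lay at the floor of 2.01. Because those 3 values were set to the same floor, any value above it stands out, and the chance rate does not apply to Notch4.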

How the results depend on the processing

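Of 897 values for the 30 member differences under 30 alternatives, 808 kept their direction and side of the threshold, 86 changed sign and 3 newly passed the threshold. Of the 30 differences, 9 never changed sign. Alternatives that changed only the variance model or the test, or left out arrays of the third group, could not move a difference. Such settings count among the values kept, so these counts do not measure how firm a difference is. The 3 that newly passed were those of Jag1 and Notch2 given above without sensitive array 4. Of the 30 differences, 0 passed the adjusted test with the settings of the report, and apart from the left-out arrays the cause was not tested. Notch4 lay at the floor on 7 of 13 arrays, so its differences are understated.

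In the order resistant minus sensitive (RS), sensitive minus control (SC) and resistant minus control (RC), log2 differences that changed sign were these. With the values as deposited, Hes1 was 0.31 RS and -0.17 SC, Dll1 -0.0027 RC and Notch3 -0.085 RC. With arrays centred on the median, which moved the median of all genes by 0.11 RS and -0.14 SC, Hey1 was 0.035 and Hes1 0.40 RS, Jag2 -0.10, Notch3 -0.095 and Hes1 -0.28 SC, and Dll1 -0.032 and Notch3 -0.11 RC. With array weights, Hes1 was 0.12 RS and Notch3 -0.18 RC. By the probe set of largest variance, Dll4 was -0.18 RS and 0.30 SC, and by the mean of all probe sets it was 0.078 SC, with Notch1 0.089 and Notch3 -0.051 RC.

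Without control arrays 4 and 5, Dll1 was 0.18, Notch1 0.072 and Hey1 0.54 SC, and Notch1 0.46, Notch4 0.27 and Hey1 0.44 RC. Without sensitive arrays 1 and 2, chosen after seeing the data, Jag2 was 0.35, Notch1 -0.39, Notch3 0.54, Hey1 0.24 and Hes1 1.52 RS, and Jag2 -0.54, Notch1 0.23, Notch3 -0.54 and Hes1 -1.31 SC. When resistant arrays 2 and 3 were left out too, the SC values were those same -0.54, 0.23, -0.54 and -1.31, the RS values 0.26 for Jag2, -0.25 for Notch1, 0.59 for Notch3 and 1.24 for Hes1, and the RC values -0.063 for Dll1 and -0.070 for Hes1. Without sensitive arrays 1, 2 and 3, Jag1 was -0.40, Jag2 0.013, Notch1 -1.05, Notch3 0.52, Hey1 0.11 and Hes1 1.23 RS, and Jag2 -0.21, Notch1 0.89, Notch3 -0.52 and Hes1 -1.02 SC.

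Leaving out each array in turn, the ranges that crossed 0 were, for RS, -0.16 to 0.37 (Dll1), -0.60 to 0.074 (Notch3), -0.37 to 0.084 (Hey1) and -0.72 to 0.51 (Hes1), for SC, -0.33 to 0.20 (Dll1), -0.077 to 0.77 (Jag2), -0.074 to 0.60 (Notch3) and -0.30 to 0.93 (Hes1), and for RC, -0.12 to 0.27 (Dll1), -0.42 to 0.085 (Notch1), -0.22 to 0.19 (Notch3) and -0.064 to 0.51 (Hes1). Jag1 ran from 1.96 to 3.42 RS and -3.93 to -2.47 SC, and Notch2 from 1.15 to 1.83 RS and -2.27 to -1.59 SC. Members called ran from 0 to 1 RS and 0 to 2 SC, and genes called from 0 to 428 RS (428 without sensitive array 4, 4 without control array 1) and 0 to 696 SC (696 without sensitive array 4, 1 without control array 3). Genes called RS were also 1 with the floor at the 50th percentile, 1 with genes above the floor on all arrays of a group, 2 with only the 2 groups compared, 1 without sensitive arrays 1 and 2 and resistant arrays 2 and 3, 7 without sensitive arrays 1, 2 and 3 and 16 without sensitive arrays 1 and 2. The last 3 settings gave 4, 5 and 19 genes SC, and array weights gave 34 genes RC.

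The replicate numbers share no source in the labels. Among 12 same-numbered pairs, deviations from group means correlated at -0.43 to 0.53, with 4 over 0.1, and 3 correlated best with their own number. With the replicate number as a block, a fit that left out control array 5, 0 members and 0 genes were called in each comparison. Dll1 was 0.052 SC and Notch1 0.085 RC, both changed in sign. Leaving out control array 5 without a block gave these same values. Jag1 was 2.47 RS with the block (adjusted p = 0.643).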
